A study of Mus musculus with 161 samples.

Results

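Retnla, Chi3l3, Ear11 and Ear2 are 4 genes for secreted proteins that IL-4 raises in mouse macrophages, and they were taken by name as 4 of the 8307 genes of the bulk RNA-seq matrix and as 4 of the 27998 genes of the single-cell matrices, where Chi3l3 is listed as Chil3 and Ear11 as Rnase2a. Retnla encodes RELMα (Fizz1), a small cysteine-rich secreted protein. Chi3l3 encodes Ym1, a chitinase-like lectin that binds sugars without cutting chitin. Ear11 and Ear2 belong to the eosinophil-associated ribonucleases, a family that has expanded in rodents. IL-4 signals through its receptor and the kinases bound to it to the transcription factor STAT6, and Retnla and Chi3l3 are among the markers most often used for alternatively activated (M2) macrophages.

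Macrophages were grown from bone marrow of C57BL/6J mice aged 6 to 10 weeks in medium with 20 ng/mL MCSF, the growth factor of the lineage, and were stimulated on day 7. M0 cells received no polarizing cytokine, M1 cells received 100 ng/mL LPS with 25 ng/mL IFN-γ, and M2 cells were given IL-4 at 25 ng/mL. After 24 h some M1 and M2 cells were washed and given M0 medium (M1 → M0, M2 → M0) or the opposite cytokines (M1 → M2, M2 → M1), and kept cells were washed and given the same cytokines again. Hours are counted from the first stimulation, so 48 h M1 → M2 is 24 h of M1 cytokines and then 24 h of IL-4. Bulk RNA-seq covered 48 conditions, 45 of them with 3 libraries, 1 (48 h M0) with 2 and 2 (96 h M0 and 28 h M2 → M1) with 4. Single cells were sequenced in 7 conditions, 1 library for each, and ATAC-seq, which reads open chromatin, covered M0 cells at 0 h, M1 cells at 24 h and the group labelled 72 h M1 → M0, with 3 libraries each. The labels call the libraries biological replicates without tying them to separate mice, so a p-value here reflects only how far these samples spread, which may be technical.

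The bulk values are FPKM, fragments scaled to transcript length and to the mapped fragments of the library, and their sum over the 8307 genes ran from 354027 to 710082 per library, with the read depth not given. Replicate 1 stood apart in the bulk data. When libraries were expressed as deviations from their conditions, the first principal component took up 32.6% of the variance, and replicate 1 had the highest score on it in 45 of 48 conditions, so each member's value is given for every library where a result turns on it. In bulk RNA fewer cells making a transcript and less transcript per cell cannot be told apart. The Ear genes are close copies of each other, and so are Chi3l3 and Chi3l4, and reads that match several copies may have been split between them.

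The promoters are shown because all 4 genes answered to the same cytokine. They are the 250 bases before the RefSeq start of each gene in GRCm38.p6, 5′ to 3′ on the strand of the gene, at chr16:48842359-48842608 (Retnla, plus strand), chr3:106167565-106167814 (Chi3l3, minus strand), chr14:51256113-51256362 (Ear11, minus strand) and chr14:44102404-44102653 (Ear2, plus strand). Capitals mark matches, on either strand, to TTCNNNNGAA, the spacing that STAT6 prefers, to TTCNNNGAA, the spacing of other STAT sites, and to TTNNGCAA, a form of the site of C/EBP factors.
Retnla: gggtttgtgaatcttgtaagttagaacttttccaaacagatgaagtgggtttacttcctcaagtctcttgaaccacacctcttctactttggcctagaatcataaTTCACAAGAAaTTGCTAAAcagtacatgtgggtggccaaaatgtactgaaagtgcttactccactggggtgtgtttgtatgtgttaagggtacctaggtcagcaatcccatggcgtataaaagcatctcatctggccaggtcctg
Chi3l3: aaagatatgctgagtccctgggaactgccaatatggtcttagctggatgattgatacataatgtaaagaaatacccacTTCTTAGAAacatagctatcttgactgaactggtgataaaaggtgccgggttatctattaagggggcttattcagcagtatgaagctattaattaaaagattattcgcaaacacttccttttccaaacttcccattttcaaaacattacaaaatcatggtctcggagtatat
Ear11: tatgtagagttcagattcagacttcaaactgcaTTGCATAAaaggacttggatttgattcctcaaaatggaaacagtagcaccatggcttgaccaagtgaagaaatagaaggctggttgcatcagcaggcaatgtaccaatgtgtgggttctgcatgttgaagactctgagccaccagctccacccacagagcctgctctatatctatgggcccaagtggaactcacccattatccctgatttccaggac
Ear2: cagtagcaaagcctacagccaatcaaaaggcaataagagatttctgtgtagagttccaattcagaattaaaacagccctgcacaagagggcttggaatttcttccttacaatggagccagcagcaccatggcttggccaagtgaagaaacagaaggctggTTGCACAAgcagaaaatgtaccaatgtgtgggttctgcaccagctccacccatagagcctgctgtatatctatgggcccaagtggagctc
The Retnla promoter held a TTCNNNNGAA match at bases -145 to -136 from the start and a TTNNGCAA match at -134 to -127, side by side. The Chi3l3 promoter held a TTCNNNGAA match at -172 to -164, and Ear11 and Ear2 each held a TTNNGCAA match, at -217 to -210 and at -90 to -83. Of 32851 RefSeq promoters of this length, 5.85% held TTCNNNNGAA, 7.02% held TTCNNNGAA and 9.56% held TTNNGCAA. The Ear11 and Ear2 promoters were identical at 60.5% of aligned positions, against 44.7% to 50.2% for the other pairs. For Retnla the RefSeq start lies inside the gene as GENCODE vM21 draws it (chr16:48842551-48844461). A match describes letters only, and binding was not measured.

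In resting cells the members differed in level. At 0 h M0, Chi3l3 read 42.5, 101 and 94.3 FPKM in replicates 1 to 3 and Ear2 read 5.58, 12 and 12.6 FPKM. Retnla read 0.185, 0.134 and 0.472 FPKM and Ear11 read 0.257, 0.111 and 0.0786 FPKM, so both were near the bottom of the scale before any cytokine.

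IL-4 raised all 4 members, and by 24 h all 3 M2 libraries lay above all 3 libraries at 0 h for each of them. At 24 h M2, Retnla read 6251, 5877 and 5453 FPKM. This was 22222-fold above its mean at 0 h and 3977-fold above its mean in 24 h M0, where the replicates read 1.08, 3.26 and 0.0871 FPKM. Chi3l3 read 1077, 1581 and 1311 FPKM at 24 h M2, a 16.7-fold rise over 0 h. Against the 24 h M0 libraries, which read 0.658, 6.29 and 3.51 FPKM, it was 379-fold higher, since Chi3l3 itself was lower in those cells than at 0 h. Ear11 read 206, 119 and 134 FPKM at 24 h M2, 1028-fold above 0 h. Ear2 read 75.4, 74.9 and 82.7 FPKM, 7.71-fold above 0 h, the smallest rise of the 4.

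The differences were tested with limma on log2(FPKM + 1), a scale that understates the change of low genes, with p-values adjusted by the Benjamini-Hochberg method over all 8307 genes and called below 0.05. For 24 h M2 against 0 h M0 the log2 fold change was 12.19 ± 0.66 (SE) for Retnla (limma adjusted p = 4.9e-31), 7.03 ± 0.35 for Ear11 (8.1e-34), 4.12 ± 0.41 for Chi3l3 (5.8e-15) and 2.90 ± 0.56 for Ear2 (1.8e-05). All 4 members were called higher, where 18.2% of all genes were higher and 14.2% lower, and their median log2 fold change was 5.57 against 0.05 for all genes. The members were picked as genes that IL-4 raises, with earlier results of these data known. Ear11 may also have entered the matrix through its level after IL-4 alone. Counts of members in M2 cells are therefore a description and not a test of the set. Against 24 h M0, cells with the same time in culture, all 4 were again called higher, with 18.5% of all genes higher. The log2 fold changes were then 11.43 for Retnla, 8.43 for Chi3l3, 7.05 for Ear11 and 3.61 for Ear2 (largest limma adjusted p = 1.2e-07).

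**Figure D1:**
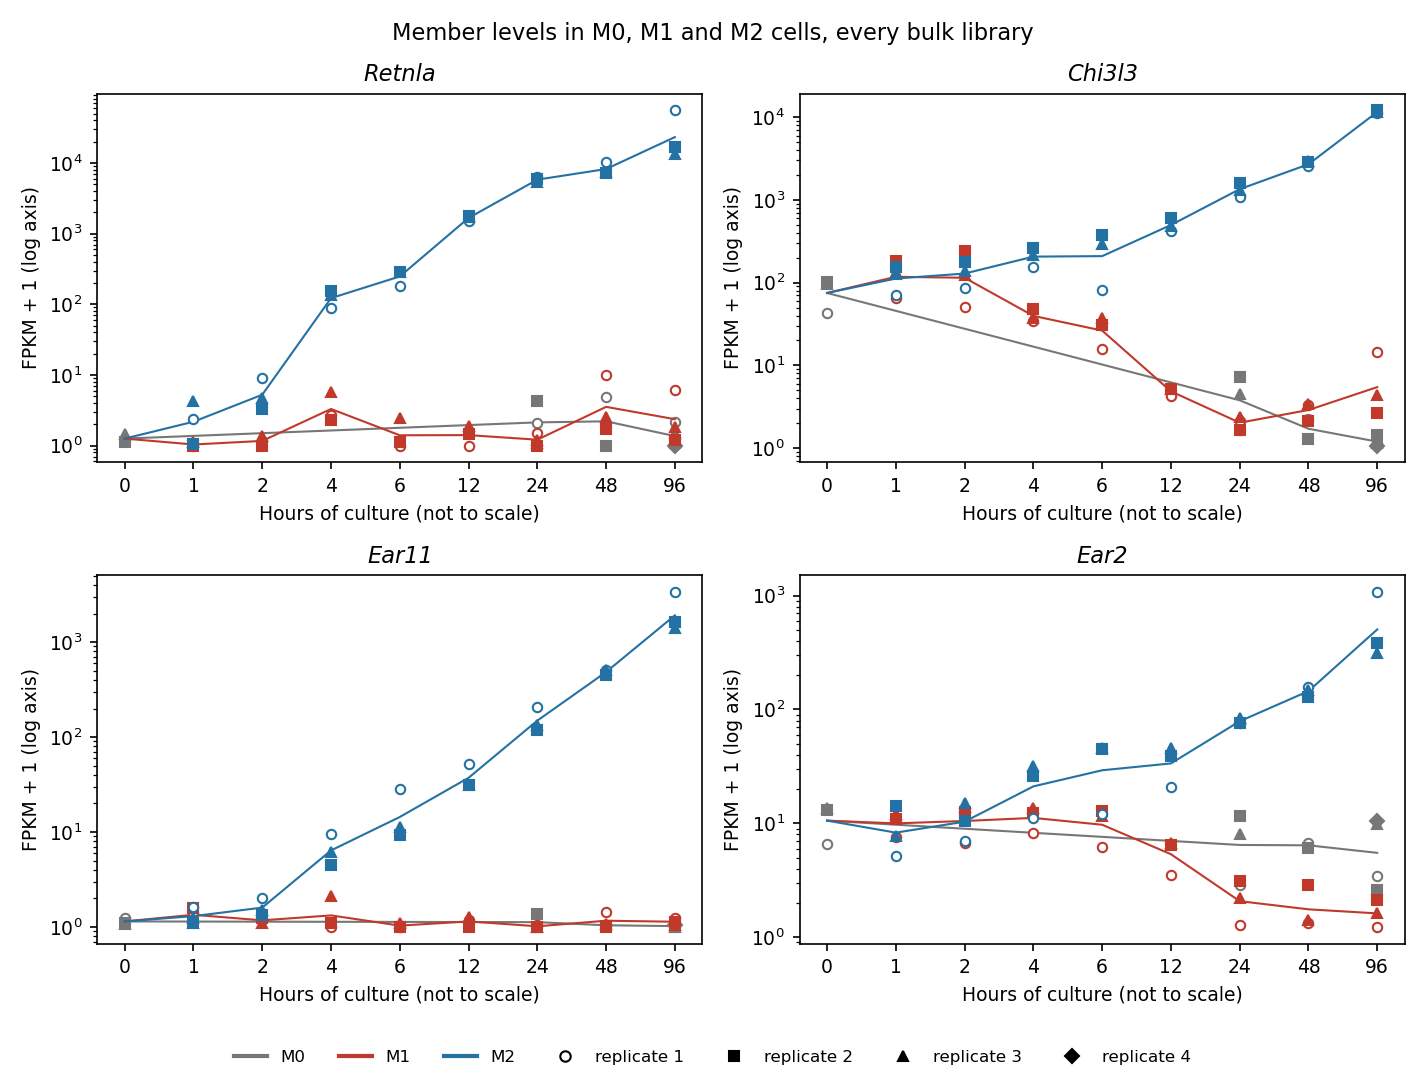
FPKM + 1 on a log axis against hours of culture (evenly spaced, not to scale) for each member, with a point for each bulk library, shaped by replicate, and lines through the condition means on the log scale for M0 (grey), M1 (red) and M2 (blue). M2 values of all 4 genes climbed to 96 h, where Retnla ranged from 13483 to 55574 FPKM, while Chi3l3 fell in both M0 and M1 cells.

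The members were called at different times. Retnla passed first, at 2 h of IL-4, with 8.09, 2.32 and 3.76 FPKM and a log2 fold change of 2.06 over 0 h M0 (limma adjusted p = 0.014, with 12.6% of genes called higher). By 4 h it read 87.5, 154 and 132 FPKM and by 12 h 1489, 1794 and 1736 FPKM. Chi3l3 and Ear11 passed from 4 h on, when 22.5% of genes were higher. Chi3l3 then read 153, 260 and 217 FPKM, and Ear11 read 8.46, 3.54 and 5.13 FPKM (log2 fold changes of 1.46 and 2.48, limma adjusted p = 0.0021 and 3.6e-09). Ear2 passed from 6 h on (limma adjusted p = 0.026, 25.6% of genes higher), with 11, 44.2 and 45 FPKM. Replicate 1 was the low library of Ear2 at that time and lay below the highest 0 h value.

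Levels went on rising while IL-4 was kept. At 96 h M2, Chi3l3 read 11211, 12145 and 11432 FPKM, a narrow spread at 877 ± 36.9% (SD, n = 3) of its 24 h M2 mean. Ear11 read 3388, 1630 and 1390 FPKM, or 1397 ± 713% of its 24 h mean. Retnla read 55574, 16749 and 13483 FPKM and Ear2 read 1081, 379 and 311 FPKM. Replicate 1 was the high library of Retnla, Ear11 and Ear2 at 96 h, but not of Chi3l3. On this per-length scale the order of the mean levels at 96 h M2 was Retnla (28602 FPKM), Chi3l3 (11596), Ear11 (2136) and Ear2 (590). Together the 4 members held 13.5% of the FPKM summed over all genes in replicate 1 and 6.13% and 5.58% in replicates 2 and 3, against 1.52% to 1.84% at 24 h M2. Retnla was the gene with the highest FPKM in each 96 h M2 library. Against 96 h M0 all 4 were called higher, with log2 fold changes of 14.06 (Retnla), 13.24 (Chi3l3), 10.91 (Ear11) and 6.52 (Ear2), and 20.4% of all genes were higher.

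In order of mean level across the 48 conditions, 96 h M2 came first for each member. The second was 48 h M2 for Retnla, Ear11 and Ear2 and 96 h M1 → M2 for Chi3l3. Below these the order was mostly gradual. The ranges of neighbouring conditions overlapped for 42 of 47 neighbours for Retnla, 43 for Chi3l3, 45 for Ear11 and 45 for Ear2. All libraries exceeded 100 FPKM in 17 conditions for Retnla, 22 for Chi3l3, 4 for Ear11 and 2 for Ear2.

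Without IL-4, Chi3l3 was the member that moved most. In M0 cells it went from 42.5 to 101 FPKM at 0 h to 1.26 and 0.297 FPKM at 48 h and to 0.137, 0.455, 0.155 and 0.073 FPKM at 96 h, a 387-fold fall with no overlap. The log2 fold change was -4.31 ± 0.41 at 24 h (limma adjusted p = 3.6e-15, with 1.01% of genes lower) and -5.97 at 96 h (8.8e-26, with 6.9% of genes lower). The other 3 members were not called between 0 h and 24 h or 96 h M0. Ear2 read 2.46, 1.57, 8.9 and 9.42 FPKM at 96 h M0, which overlapped 0 h.

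In M1 cells, set against 0 h M0, Chi3l3 fell and Ear2 fell later. Chi3l3 read 64.2, 184 and 135 FPKM at 1 h M1, 33.3, 47.4 and 36.5 FPKM at 4 h and 1.11, 0.656 and 1.4 FPKM at 24 h. It was called lower from 4 h on (limma adjusted p = 0.041, 27.6% of genes lower), and at 24 h its mean was 75.1-fold below 0 h (log2 fold change -5.21, 1.5e-21). Ear2 read 0.276, 2.11 and 1.22 FPKM at 24 h M1, 8.37-fold below 0 h with no overlap (log2 fold change -2.35, limma adjusted p = 0.00018). These were the 2 of 4 members called lower at 24 h M1, where 25.2% of all genes were lower. At 24 h M0 Chi3l3 read 0.658 to 6.29 FPKM and Ear2 1.85 to 10.6 FPKM. Both ranges overlapped those of 24 h M1. The part of time in culture in these falls was not tested. Retnla and Ear11 stayed low, with at most 0.496 FPKM of Retnla at 24 h M1. The only M1 time at which Retnla was called higher than 0 h was 48 h (limma adjusted p = 0.044, 36.2% of genes higher). It then read 9.13, 0.723 and 1.5 FPKM, with 1 library well above the others. At 4 h M1 it read 1.68, 1.33 and 4.72 FPKM, also above every 0 h library, but was not called. At 96 h M1 it read 5.03, 0.214 and 0.806 FPKM, which overlapped 0 h.

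Markers of neutrophils and their precursors moved with Chi3l3 in the early bulk cultures. Monocyte markers fell too against 0 h M0. All 6 were called lower at 96 h M0, with 6.9% of all genes lower. At 24 h M1 5 were lower and 1 higher, with 25.2% of all genes lower and 35.9% higher. The sum of 11 measured markers of 12 listed was 1063 to 2853 FPKM at 0 h M0 and 1543 to 4450 FPKM at 1 h M1. It was 810 to 1576 FPKM at 4 h M1, 66.8 to 92.9 FPKM at 24 h M1, 61.1 to 356 FPKM at 24 h M0 and 18 to 25.3 FPKM at 96 h M0. In 24 h M2 cells the sum was 46.1 to 329 FPKM while Chi3l3 was at its highest to that point. In 0 h M0 single cells Chi3l3 had only 5 UMIs in 4 of 5985 cells, and the 12 neutrophil markers together had 498 UMIs, 301 of them Mmp8. In the single-cell M0 and M1 libraries the marker sum did not fall. Per 1000000 UMIs it was 65.8, 69.1 and 81.6 at 0, 6 and 24 h M0. It was 78.1 and 125 at 6 and 24 h M1, where Lcn2 gave 663 of the 889 UMIs at 24 h. At 6 and 24 h M2 it was 31.6 and 43.2. Of 6 eosinophil markers only Prg2 and Ccr3 were in the bulk matrix, and their sum was 12.3 to 34.4 FPKM at 0 h M0, 9.02 to 18.8 FPKM at 24 h M2 and 3.59 to 5.82 FPKM at 96 h M2, where the Ear genes were highest. Summed macrophage markers were 10921 to 12366 FPKM at 0 h M0 and 5304 to 6428 FPKM at 24 h M2. The part of these cell types in the results was not tested.

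After IL-4 was withdrawn all 4 members fell. At 26 h M2 → M0 the Ear2 libraries, at 30.6, 51.8 and 73.8 FPKM, were below the 24 h M2 range, and at 28 h those of Chi3l3 and Ear11 were too, though none was called at these times. Ear11 was the first to be called. Relative to its 24 h M2 mean it stood at 44.9 ± 8.43% (SD, n = 3) at 30 h M2 → M0, at 18.2 ± 5.45% at 36 h and at 6.14 ± 5.87% at 48 h. At 30 h its libraries read 53.9, 74.4 and 77.6 FPKM, all below the 24 h M2 range. It was the member called lower at 30 h (limma adjusted p = 0.022, 6.12% of genes lower), joined at 36 h by Ear2 (0.027, 6.2% of genes lower). Chi3l3 and Retnla were close to each other at 36 h, with 49 ± 7.82% and 50.4 ± 2.94% of the 24 h level left. At 48 h they stood at 30.1 ± 4.38% and 32.1 ± 10.7%. Chi3l3 was called lower than 24 h M2 from 48 h on (limma adjusted p = 0.00094, 8.87% of genes lower), and Retnla only at 96 h (1.4e-11, 18.4% of genes lower). All Retnla libraries were nevertheless below the lowest 24 h M2 value from 30 h on. They read 4495, 4356 and 3755 FPKM at 30 h and 1153, 2272 and 2210 FPKM at 48 h. The SE of the log2 fold change differed between genes, as in 48 h M2 → M0 against 48 h M2 (0.66 for Retnla and 0.35 for Ear11). The order of the calls is therefore not the order of the falls.

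Compared with cells kept in IL-4 for the same time, all 4 members were called lower at 48 h M2 → M0, with no overlap, where 7.55% of all genes were lower and 5.84% higher. Ear11 read 2.49, 6.15 and 19.5 FPKM against 510, 445 and 502 FPKM, a 51.7-fold difference (log2 fold change -5.92 ± 0.35, limma adjusted p = 3.7e-28). Chi3l3 was 7.02-fold lower (-2.82 ± 0.41, 2.6e-08), Ear2 7.37-fold lower (-3.15 ± 0.56, 7.5e-06) and Retnla 4.4-fold lower (-2.18 ± 0.66, 0.014). The Retnla call was lost without replicate 2 (limma adjusted p = 0.11) or replicate 3 (0.13). At 96 h all 4 were lower by 52.8-fold (Ear2) to 6306-fold (Ear11), with 13% of all genes lower.

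By 96 h of culture, 72 h after the wash, Retnla and Chi3l3 were still above M0 cells of the same age, and Ear11 and Ear2 were not called. Retnla read 79.3, 110 and 183 FPKM in M2 → M0 cells against 1.14, 0.0726, 0.496 and 0 FPKM in 96 h M0, a 290-fold difference (log2 fold change 6.44 ± 0.62, limma adjusted p = 4.6e-14). Chi3l3 read 66.2, 57.6 and 61.5 FPKM against 0.073 to 0.455 FPKM, a 301-fold difference (5.71 ± 0.38, 1.3e-23). The M2 → M0 and M0 libraries did not overlap for either of these genes. Ear11 read 0.196, 0.39 and 0.43 FPKM against 0.0397, 0, 0 and 0.0547 FPKM. These libraries did not overlap either, at levels where the log2(FPKM + 1) scale compresses differences (0.38, limma adjusted p = 1). Ear2 read 5.08, 16.1 and 12.3 FPKM and overlapped the M0 range (1.02, 0.82). Only 0.253% of all genes were higher and 0.12% lower in this comparison. Relative to 24 h M2, Retnla had 2.12 ± 0.906% left and Chi3l3 4.67 ± 0.325%. The neutrophil marker sum was 17.4 to 28.1 FPKM in 96 h M2 → M0 and 18 to 25.3 FPKM in 96 h M0.

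**Figure D2:**
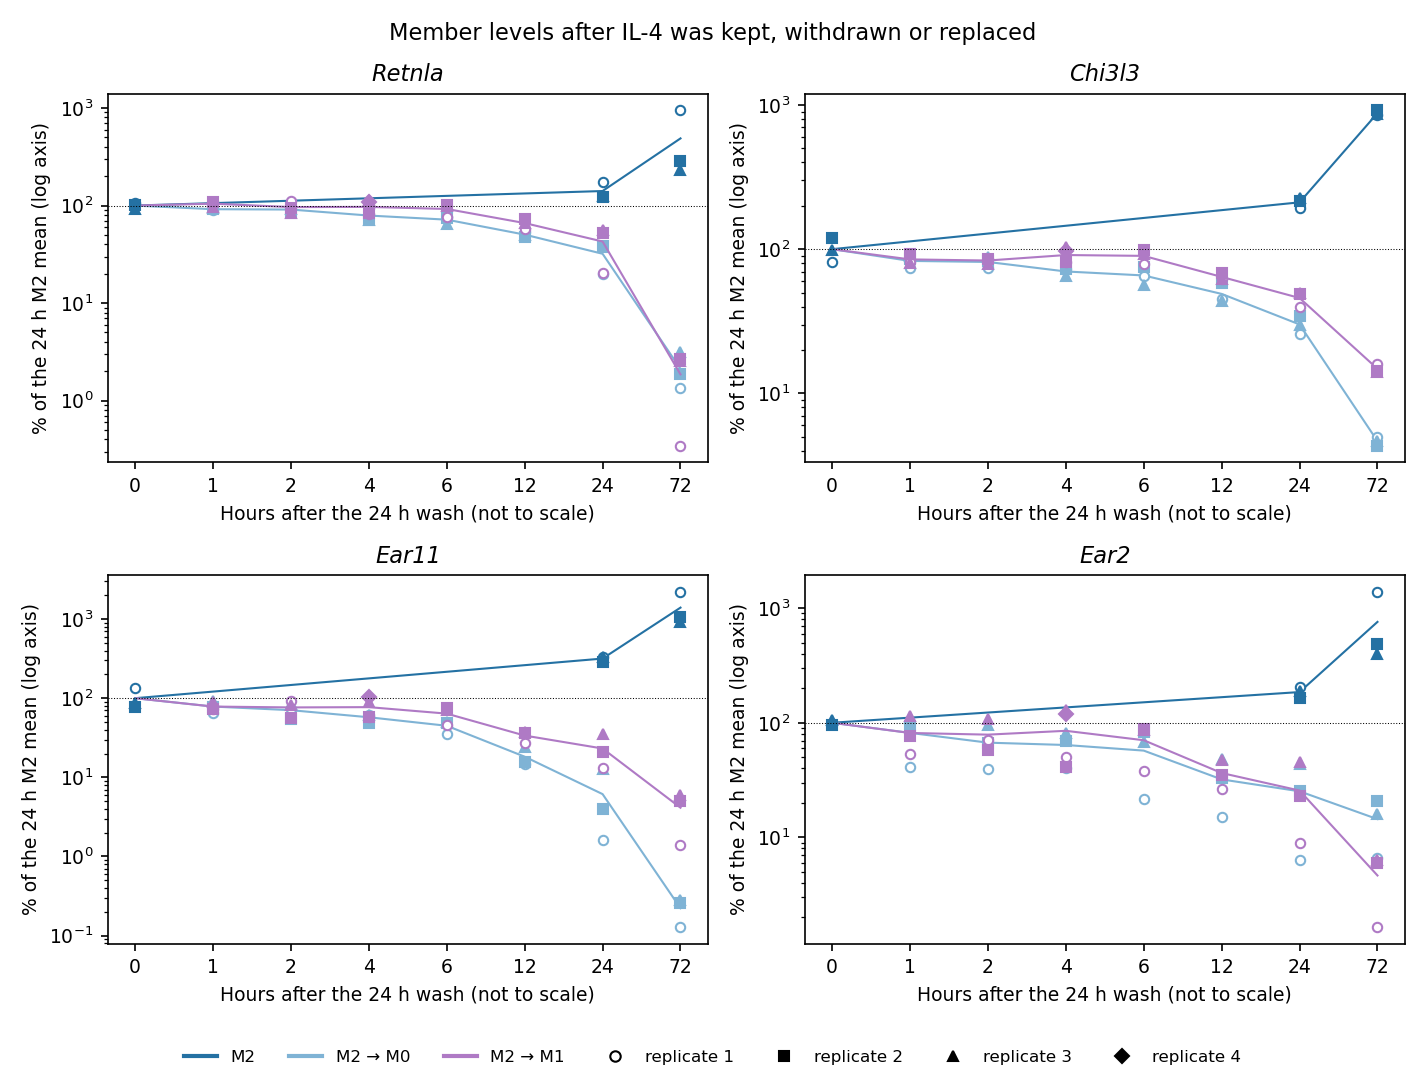
Member levels as a percentage of the 24 h M2 mean, on a log axis, against hours after the 24 h wash (evenly spaced, not to scale), for cells kept in IL-4 (M2), moved to M0 medium (M2 → M0) or moved to M1 cytokines (M2 → M1), with a point for each library, shaped by replicate, lines through the means and a dotted line at 100%. After 72 h without IL-4, Retnla stood at 2.12% and Ear11 at 0.221% on average, while cells kept in IL-4 stood above 100% for all 4 genes.

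When M1 cytokines followed IL-4, Ear11 and then Chi3l3 were called higher than after withdrawal alone, and Ear2 was called lower at 96 h. This is the order of the calls. By range, all M2 → M1 libraries of Chi3l3 already lay above M2 → M0 at 28 h (1.3-fold) and still did at 48 h (1.53-fold). Those of Retnla did at 36 h (1.31-fold), without a call. At 48 h Ear11 read 20, 31.7 and 54.5 FPKM in M2 → M1 cells and 2.49, 6.15 and 19.5 FPKM in M2 → M0 cells, so every M2 → M1 library was higher (3.77-fold, log2 fold change 2.07 ± 0.35, limma adjusted p = 1.9e-07). It was the 1 member of 4 called higher at 48 h, where 37.4% of all genes were higher, and it was already called at 36 h (0.022, 36.8% of genes higher). At 96 h Ear11 read 2.15, 7.63 and 9.19 FPKM and was 18.7-fold above M2 → M0 (2.29 ± 0.35, 2.6e-08). Chi3l3 read 213, 189 and 185 FPKM at 96 h, against 57.6 to 66.2 FPKM (3.17-fold, 1.65 ± 0.41, 0.0004). Ear2 moved the other way, with 1.28, 4.68 and 4.88 FPKM against 5.08, 16.1 and 12.3 FPKM (3.09-fold lower, -1.40 ± 0.56, 0.034), and this call was lost without replicate 2 (limma adjusted p = 0.22) or replicate 3 (0.13). Retnla, at 20.3, 156 and 151 FPKM, overlapped M2 → M0 and was not called (-0.56, 0.51). At 96 h 25.8% of all genes were higher and 20.7% lower in M2 → M1 than in M2 → M0. Summed FPKM per library was 536745 to 639772 in M2 → M1 and 391541 to 453103 in M2 → M0 at 48 h. At 96 h it was 443345 to 487283 and 439342 to 451402. The part of this scale in the folds was not tested.

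IL-4 given to M1 cells raised Chi3l3 within 2 h, while after 24 h of IL-4 the other 3 members were not called with all libraries. At 48 h M1 → M2, after 24 h of IL-4, Chi3l3 read 1501, 1025 and 745 FPKM, against 2.09, 0.83 and 1.5 FPKM in 48 h M1 → M0 (740-fold, log2 fold change 8.76 ± 0.41, limma adjusted p = 1e-35). Retnla read 1.74, 4.59 and 5.57 FPKM against 0.529, 0.277 and 0.243 FPKM. The groups did not overlap, but the test was not passed with all libraries (1.79, limma adjusted p = 0.069), while without replicate 1 it was (2.27, 4.3e-05). Ear11 read 0.406, 0 and 0.509 FPKM, while all 3 M1 → M0 libraries listed it at 0 (0.36, 0.67). Ear2 read 3.21, 11.4 and 8.41 FPKM against 1.22, 3.36 and 2.59 FPKM, with an overlap, and was not called (1.28, 0.16), but passed without replicate 1 (1.45, 0.0076) and with the replicate number as a block (1.28, limma adjusted p = 0.0084). With all libraries 1 member of 4 was called higher, where 6.27% of all genes were higher and 3.96% lower.

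Chi3l3 was called above M1 → M0 from 26 h on, with 19, 3.55 and 4.62 FPKM after 2 h of IL-4 (11.9-fold, limma adjusted p = 3.8e-05, 1.26% of genes higher). It rose through 106, 55.8 and 51.3 FPKM at 28 h and 638, 431 and 338 FPKM at 36 h to 3474, 2985 and 2132 FPKM at 96 h. At 36 h Retnla (0.0088) and Ear11 (0.017) were called too, with 7.16% of genes higher. Replicate 1 was the highest library of both, with 71.7 FPKM of Retnla where the others read 3.93 and 2.71, and 4.34 FPKM of Ear11 where the others read 0.348 and 1.12, and these calls were not run without it. The Ear11 libraries all lay above M1 → M0, and those of Retnla overlapped it. At 96 h all 4 members were called above M1 → M0, where 8.46% of all genes were higher. Retnla then read 6.33, 147 and 122 FPKM (147-fold, log2 fold change 5.15 ± 0.66, limma adjusted p = 6.3e-10), so replicate 1 was now the low library. Ear2 read 8.64, 39.8 and 40.3 FPKM (15.6-fold, 3.27, 2.2e-06) and Ear11 read 0.352, 3.28 and 4.54 FPKM (1.67 ± 0.35, 0.00011), again with replicate 1 the lowest. The Ear11 call was lost without replicate 2 (0.064) or replicate 3 (0.072).

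**Figure D3:**
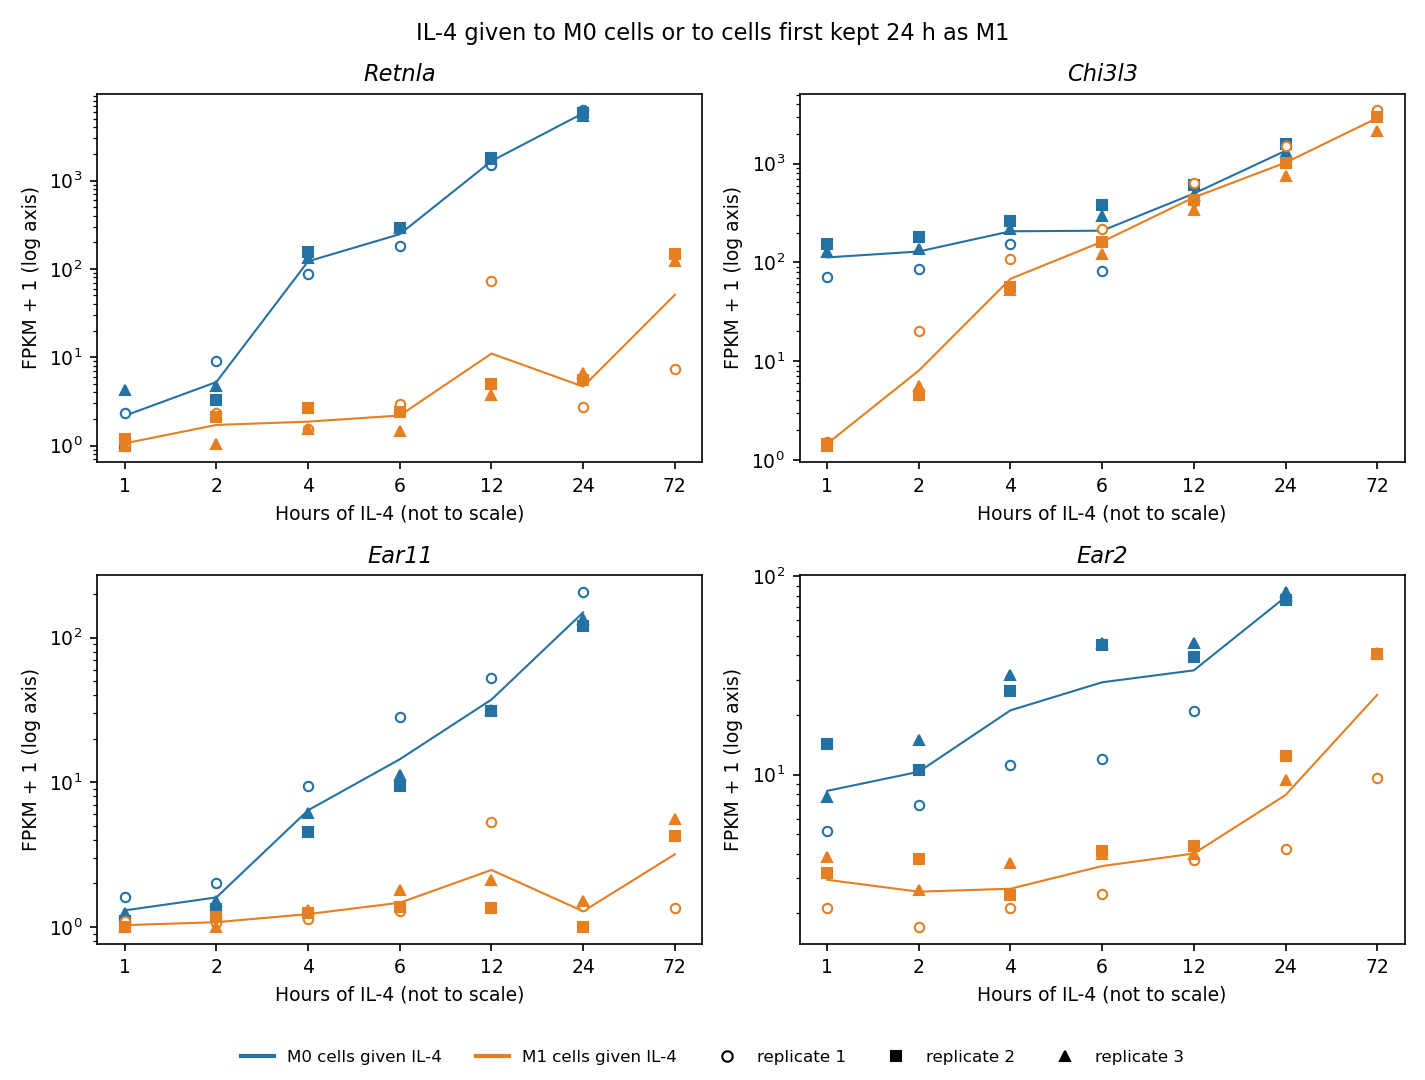
Member FPKM + 1 on a log axis against hours of IL-4 (evenly spaced, not to scale), for IL-4 given to M0 cells (blue) and to cells first kept 24 h in M1 cytokines (orange), with a point for each library and lines through the means. At 24 h of IL-4 the Chi3l3 ranges overlapped, at 745 to 1501 and 1077 to 1581 FPKM, while Retnla read 1.74 to 5.57 against 5453 to 6251 FPKM.

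At equal time in IL-4, cells that had first been M1 held far less of 3 of the 4 members than naive cells. With 24 h of IL-4 in each, Chi3l3 in 48 h M1 → M2 was 1.21-fold below 24 h M2 and the libraries overlapped (log2 fold change -0.32 ± 0.41, limma adjusted p = 0.52), though without replicate 1 it was called lower (-0.72, 0.022). Retnla was 1477-fold lower (-10.30, 4.4e-26), Ear11 502-fold lower (-6.86, 5.5e-33) and Ear2 10.1-fold lower (-3.32, 4e-07), all with no overlap, and 21.9% of all genes were lower and 32% higher. In these comparisons the former M1 cells had also spent 24 h more in culture and been washed. No M0 cells were given IL-4 after that time, so M1 history cannot be told apart from time in culture and the wash. Levels before IL-4 differed too. Chi3l3 averaged 1.06 FPKM at 24 h M1 and 79.3 FPKM at 0 h M0, and Ear2 1.2 and 10.1 FPKM. Retnla averaged 0.227 and 0.264 FPKM and Ear11 0.0196 and 0.149 FPKM. Mean rises from these levels over 24 h of IL-4, in former M1 and naive cells, were 6.38- and 7.71-fold for Ear2. They were 1033- and 16.7-fold for Chi3l3, 17.5- and 22222-fold for Retnla and 15.6- and 1028-fold for Ear11. Which members were called varied with the time in IL-4. After 1 h of IL-4 Chi3l3 was 257-fold lower in the former M1 cells, with 0.393 to 0.516 FPKM against 70.2 to 153 FPKM (log2 fold change -6.27, limma adjusted p = 1e-26), and Ear2 was 3.95-fold lower (-1.49, 0.018), while Retnla (0.17) and Ear11 (0.41) were not called, and 24.2% of all genes were lower. After 2 h Chi3l3 was 14.8-fold lower (-4.01, 2.1e-15), Retnla (-1.61, 0.028) and Ear2 (-2.02, 0.0012) were called lower, Ear11 was not (0.15), and 26.4% of genes were lower. After 4 h all 4 were called lower, Chi3l3 with 106, 55.8 and 51.3 FPKM against 153 to 260 FPKM (limma adjusted p = 0.00036), and 28.5% of genes were lower. After 6 and 12 h Retnla, Ear11 and Ear2 were called lower and Chi3l3 was not, with 29.4% and 22% of genes lower. At 96 h M1 → M2 against 96 h M2, which had 24 h more of IL-4, all 4 were lower, by 4.05-fold for Chi3l3, 20.0-fold for Ear2, 313-fold for Retnla and 784-fold for Ear11, with 9.76% of all genes lower.

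The difference between the IL-4 effect in M1 cells (48 h M1 → M2 minus 48 h M1 → M0) and in naive cells (24 h M2 minus 24 h M0) was itself tested as an interaction. It was -9.63 ± 0.93 on the log2 scale for Retnla (limma adjusted p = 2.6e-14) and -6.69 ± 0.50 for Ear11 (2.1e-20), the 2 members of 4 called lower, where 3.35% of all genes were lower. The test called 525 genes in all, and 1110 with the replicate number as a block. For Chi3l3 it was 0.33 ± 0.57 (0.82). For Ear2 it was -2.33 ± 0.80 (0.061) and passed with the replicate number as a block (0.00076). Time in culture and the wash differed between the arms along with M1 history, and cannot be told apart from it. The neutrophil marker sum was 8.85 to 49.4 FPKM in 48 h M1 → M2 and 10.9 to 42.3 FPKM in 48 h M1 → M0.

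Other genes of the pathway were counted by lists, which were chosen with earlier results of these data known. The transcription factors, membrane proteins and enzymes, and other secreted proteins were listed as genes that answer to IL-4. Some may have entered the matrix through their M2 level alone. Their counts in M2 cells are therefore a description and not a test of the lists. In 24 h M2 against 0 h M0, 7 of 10 listed transcription factors rose (Pparg, Klf4, Irf4, Myc, Batf3, Bhlhe40 and Egr2) and 1 fell (Rxra), with a median log2 fold change of 1.15. Of 10 genes of IL-4 reception and signalling 2 rose, the feedback inhibitors Cish and Socs1, and 4 fell (Ptpn6, Il13ra1, Il4ra and Jak3), with a median of -0.16, where 18.2% of all genes were higher and 14.2% lower. Of 16 measured genes for IL-4-induced membrane proteins and enzymes 15 rose, with a median of 1.82. Mgl2, a C-type lectin receptor, went from 1.99 ± 0.795 to 343 ± 60.9 FPKM (SD, n = 3), and Arg1, the arginase, from 6.67 ± 2.59 to 2639 ± 357 FPKM. Of 11 measured genes for other secreted proteins 7 rose, among them the chemokines Ccl22, Ccl24 and Ccl17, and 2 fell, with a median of 1.08. The median of all genes was 0.05.

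The lists were counted after the switches too. In 48 h M1 → M2 against M1 → M0, 14 of the 16 membrane proteins and enzymes rose (median 1.98), 5 of 10 transcription factors rose (0.97) and 2 of 11 secreted proteins rose (Igf1 and Mmp13, 0.23), with a median of 0.02 for all genes, of which 6.27% were higher. Against 24 h M2, where 21.9% of all genes were lower and 32% higher with a median of 0.11, none of the 11 secreted proteins was higher and 7 were lower (median -1.32). Of the 16 membrane proteins and enzymes 8 were lower and 2 higher (-1.25). Ccl22 read 46.2 ± 24.1 FPKM on average at 24 h M2 and 0.353 FPKM at 48 h M1 → M2. Mgl2 read 17.7 ± 9.1 FPKM at 48 h M1 → M2, which was lower than 24 h M2 (log2 fold change -4.30, limma adjusted p = 1.7e-24). Arg1 read 1206 ± 114 FPKM, and its libraries, at 1114 to 1334 FPKM, lay below the 24 h M2 range of 2273 to 2985 FPKM, though the test was not passed (-1.12, limma adjusted p = 0.068). Irf4, a transcription factor, went from 17.2 ± 10.2 FPKM at 24 h M2 to 0.225 ± 0.0831 FPKM. At 48 h M2 → M0 against 48 h M2, 13 of the 16 membrane proteins and enzymes (median -1.74), 6 of 10 transcription factors (-1.15) and 6 of 11 secreted proteins (-0.82) fell, where 7.55% of all genes were lower and the median of all genes was -0.02. At 96 h M2 → M0 against 96 h M0 only 3 genes of these lists were called, Arg1 and Matk higher and F13a1 lower, where 0.253% of all genes were higher and 0.12% lower.

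Relatives of the members were mostly not in the matrix, which held 7 of 24 listed. Chi3l4 (Ym2), the near copy of Chi3l3, read 0.0333 FPKM on average at 0 h M0, 3.35 ± 1.72 FPKM at 24 h M2 and 24.4 ± 10.5 FPKM at 96 h M2 (SD, n = 3), far below Chi3l3 in the same M2 libraries. It rose in 24 h M2 (log2 fold change 1.98, limma adjusted p = 4.8e-08). Ear1 read 1.91 ± 0.749 FPKM at 0 h M0 and 4.29 ± 3.35 FPKM at 24 h M2 (0.70, 0.32), and its 96 h M2 libraries ranged from 0.64 to 54.1 FPKM. Retnlg, which encodes RELMγ and is known from neutrophils, fell from 53.2 ± 32.7 to 11.6 ± 9.37 FPKM (-2.41, 0.016). Of the more distant relatives, Rnase4 (1.30), Ang (1.08) and Chid1 (0.93) rose and Rnase6 (0.20, 0.7) was not called.

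Across the 48 condition means on the log2(FPKM + 1) scale, which share libraries and control cells and are given as a description, Mgl2 was among the 5 genes most correlated with each member. Retnla was closest to Mgl2 (Pearson r = 0.963, Spearman rho = 0.887), Ear11 (0.956, 0.905), Tmed3 (0.927), Penk (0.919) and Ocstamp (0.919). Chi3l3 was closest to Mgl2 (0.883, 0.926), Lipn (0.881), Gpt2 (0.845), Ear2 (0.844) and Ccdc88a (0.838). Ear11 was closest to Ocstamp (0.965, 0.867), Mgl2 (0.960), Retnla (0.956), Tmed3 (0.939) and Aldh1a2 (0.938). Ear2 was closest to Il27ra (0.958, 0.952), Ssr4 (0.941), Lrrc32 (0.940), Mgl2 (0.931) and Itgax (0.927). Among the members the weakest pair by Pearson r was Chi3l3 with Ear11 (0.794), though it had the highest Spearman rho (0.930). The strongest by Pearson r was Retnla with Ear11 (0.956, 0.905).

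Single-cell RNA-seq counted UMIs, unique molecular identifiers that mark single captured transcripts, in 2446 to 5985 cells per library with a median of 1025 to 2529 UMIs per cell. With 1 library per condition there is no test, and the intervals (95%, exact) cover counting error only. Pairs of libraries shared 6 to 25 cell barcodes. Doublets were not called.

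A Retnla UMI was found in 99.5% of cells at 24 h M2 and in 40.3% at 6 h M2. At 6 h M2 it had 6209 UMIs, in 1093 of 2709 cells (40.3%, 38.5 to 42.2), or 734 CPM (716 to 753), UMIs scaled to the library's total and written per 1000000. At 24 h M2 it had 104876 UMIs, in 2908 of 2924 cells (99.5%, 99.1 to 99.7), or 13497 CPM (13415 to 13579). The median cell then held 26 Retnla UMIs, the 5th percentile 3 and the 95th 100. In the M0 and M1 libraries Retnla had 1 UMI at 0 h M0 and 0 in the other 4. A count of 0 allows up to 0.11% of cells with a UMI at 24 h M0 (median 1751 UMIs per cell) and 0.106% at 24 h M1 (2056), a limit on detection and not on the cells that express the gene. All shares are of cells with a UMI. Free RNA in a droplet library can give a UMI to a cell that does not express the gene, and no cluster at 24 h M2 lacked Retnla to give a background share. Its part in the shares was not tested.

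The other members were found in fewer cells. Chi3l3 went from 172 cells (6.35%, 5.46 to 7.33) and 46.8 CPM at 6 h M2 to 1186 cells (40.6%, 38.8 to 42.4) and 912 CPM (890 to 933) at 24 h M2. Ear11 went from 57 cells (2.1%, 1.6 to 2.72) and 9.46 CPM to 919 cells (31.4%, 29.7 to 33.1) and 302 CPM (290 to 315). Ear2 went from 6 cells (0.221%) and 1.06 CPM to 192 cells (6.57%, 5.7 to 7.53) and 36 CPM (31.9 to 40.5). For all 4 genes the 24 h share was thus above the 6 h share beyond the counting intervals. The M0 and M1 libraries had 0 to 13 Chi3l3 UMIs, no Ear11 UMI and 0 to 16 Ear2 UMIs, the 16 of them in 12 cells (0.369%, 0.191 to 0.644) at 6 h M1, a share close to that of 6 h M2.

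Depth differed between libraries, so the cells were also thinned to a fixed number of UMIs. With 1000 UMIs per cell the shares at 6 h and 24 h M2 were 26.1% and 97.7% for Retnla, 3.36% and 28.2% for Chi3l3, 0.738% and 20.1% for Ear11 and 0.111% and 3.5% for Ear2. Each share was lower than in the full data, and the order of the times and of the genes was the same.

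**Figure D4:**
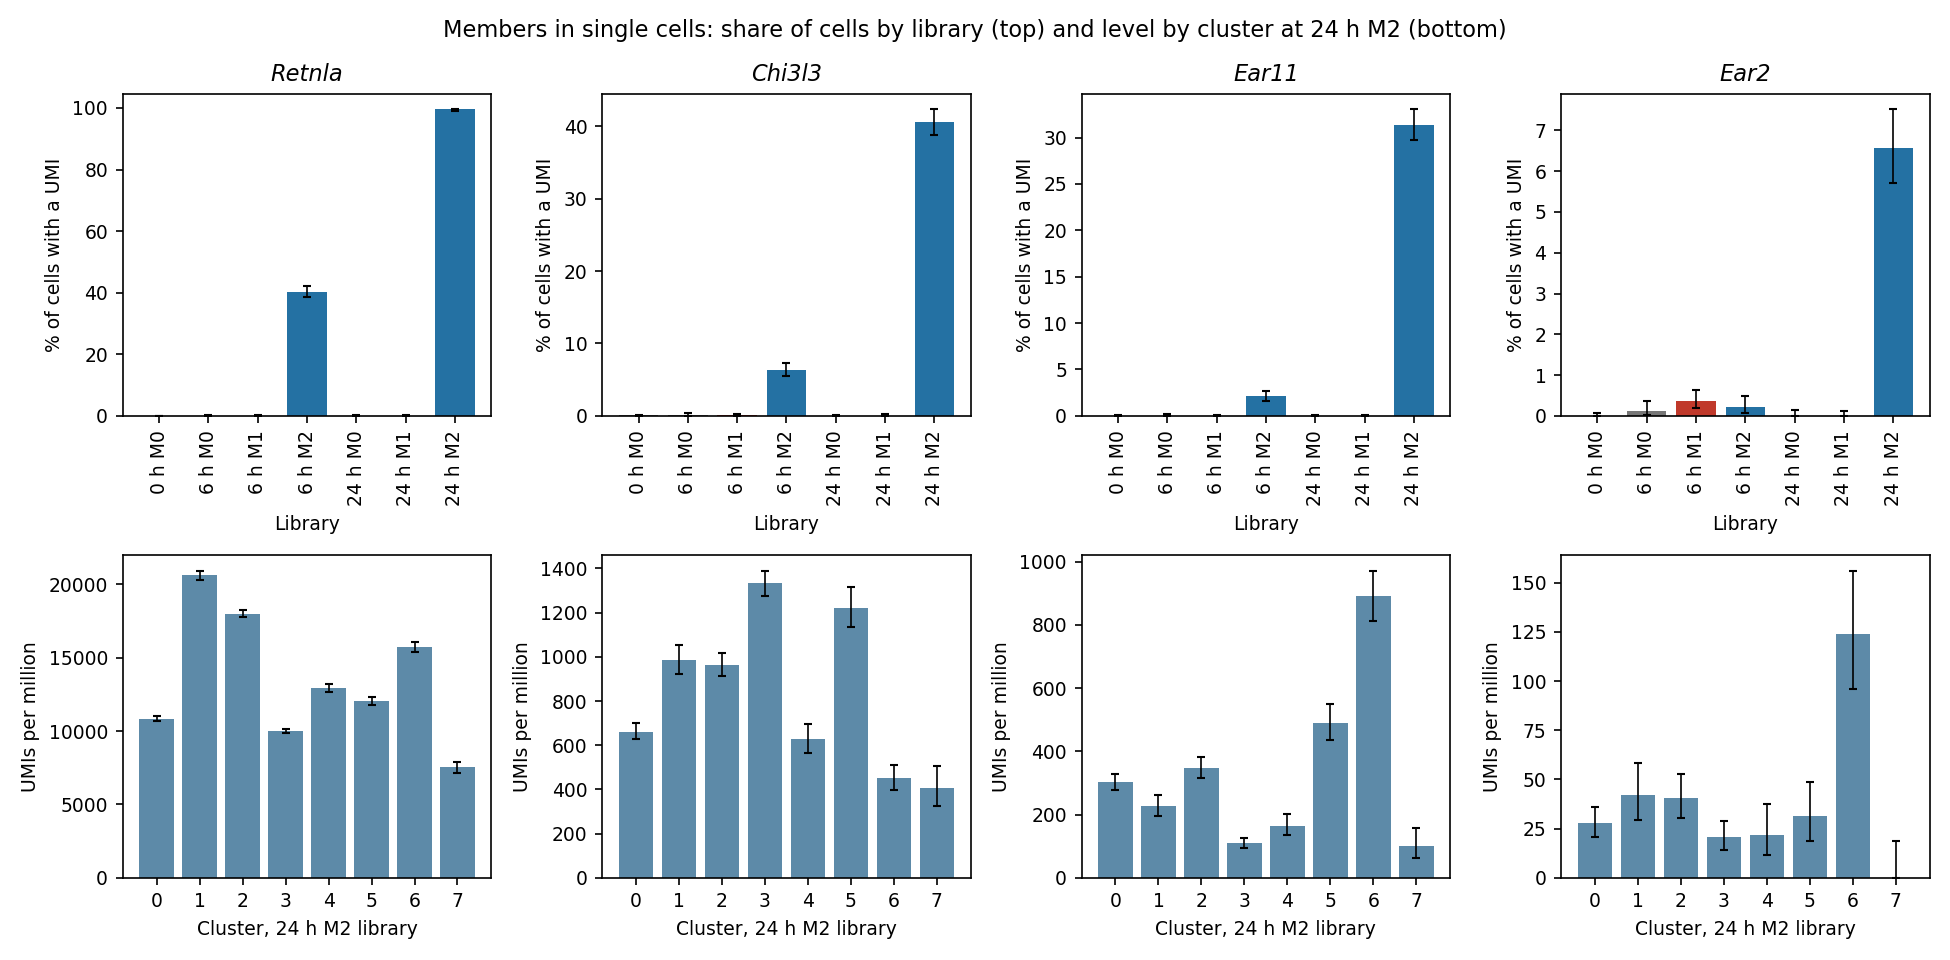
Top, bars for the percentage of cells with a UMI of each member in the 7 single-cell libraries. Bottom, bars for the level of each member (UMIs scaled to the cluster total, CPM) in the 8 clusters of the 24 h M2 library, with error bars for 95% exact intervals that cover counting error only in both rows. Retnla was found in 99.5% of 24 h M2 cells and Ear2 in 6.57%, and Ear11 and Ear2 were highest in cluster 6.

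Within the 24 h M2 library the UMIs were spread unevenly. The 10% of cells with most UMIs of a gene held 28.8% of the Retnla UMIs, 65.6% of the Ear11 UMIs and 74.9% of the Chi3l3 UMIs. Of the 2924 cells 13 (0.445%) held none of the 4 transcripts, 1163 (39.8%) held 1, 1249 (42.7%) held 2, 452 (15.5%) held 3 and 47 (1.61%) held all 4. At 6 h M2 54.8% held none and 41.5% held 1. Ear2 was found in 11.4% (9.44 to 13.7) of the 919 cells with Ear11 and in 4.34% (3.49 to 5.33) of the 2005 cells without it. Thinned to 1000 UMIs the shares were 5.7% (3.9 to 7.99) and 2.95% (2.28 to 3.75), which do not overlap. Ear11 was found in 33.6% (31 to 36.4) of cells with Chi3l3 and in 29.9% (27.8 to 32.1) of cells without it, and after thinning in 19.8% and 20.1%.

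Cells of the 24 h M2 library were clustered without the 4 members and 4 of their relatives, which gave 8 clusters, called here by number and leading genes. A Retnla UMI was found in 98.6% to 100% of the cells of every cluster, and its level ranged 2.74-fold, from 7530 CPM in cluster 7 (46 cells, led by Ccl4, Ccl2 and Ccl3) to 20612 CPM in cluster 1 (565 cells, led by Ctla2a, Nrgn and Tesc). Chi3l3 ranged 3.26-fold, from 408 CPM in cluster 7 to 1332 CPM in cluster 3 (485 cells, led by Hilpda, Spp1 and Rgs1). Ear11 ranged 8.73-fold, from 102 CPM in cluster 7 to 890 CPM (813 to 971) in cluster 6. Cluster 6 held 151 cells led by the MHC class II genes H2-Eb1, H2-Ab1 and H2-Aa with Ms4a4c and Cd74. There Ear11 was in 62.9% (54.7 to 70.6) of cells and Ear2 in 25.2% (18.5 to 32.9) at 124 CPM (96.1 to 156), against 20.6 to 42.2 CPM of Ear2 in clusters 0 to 5 and no Ear2 UMI in cluster 7. Chi3l3 was low in the same cells, at 453 CPM. Summed dendritic cell markers were 17.9 CPM in cluster 6, 15.3 CPM in cluster 7, where Ear11 was lowest, and 0 to 6.74 CPM in clusters 0 to 5. Macrophage markers were 9655 CPM in cluster 6, and the part of these cell types in the result was not tested. Cluster 6 was deeper than most, with a median of 3578 UMIs against 1357 to 3063 in clusters 0 to 5 and 3850.5 in cluster 7. Cluster 1, where Retnla CPM was highest, was the shallowest (1357 UMIs), and cluster 7, where it was lowest, was the deepest. Cluster 1 held 17577 Retnla UMIs in its 565 cells and cluster 7 held 1475 in its 46 cells. CPM divides by total UMIs, and the part of depth in these ranges was not tested. In the 6 h M2 library, clustered the same way, the highest Ear11 share was again in the cluster led by H2-Aa, with 20% (7.71 to 38.6) of its 30 cells. With 1 library per time this is a description.

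Markers of granulocytes were scarce in the single cells. At 24 h M2 the neutrophil markers summed to 43.2 CPM and the 6 eosinophil markers to 5.28 CPM, mostly Ccr3, with 4 of the 6 at 0. Markers of basophils and mast cells had no UMI in either M2 library. Macrophage markers summed to 9608 CPM. The near copies were also rare, with 33 UMIs of Chil4, 1 of Ear1, 2 of Rnase2b and 0 of Ear10 at 24 h M2.

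Chromatin near the members was measured in M0 and M1 cells only, as counts of reads per merged peak, and was not analysed here in M2 cells. The only M0 group was that of 0 h, so M1 cytokines and time in culture cannot be told apart in these comparisons. Library totals over peaks ran from 1730488 (24 h M1 replicate 3) to 9354620 (0 h M0 replicate 1), so replicate 3 of 24 h M1 gave the least precise counts. Of 150203 sites 137586 were tested with edgeR, and 18 sites lay within 10 kb of a member (6 at Chi3l3, 7 at Ear11, 3 at Ear2 and 2 at Retnla). At 24 h M1 2 of the 18 were called higher than 0 h M0 and 5 lower, where 16.4% of all sites were higher and 13.8% lower. In 72 h M1 → M0 none was higher and 4 were lower, where 10% of all sites were higher and 8.14% lower.

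At Chi3l3 the site with the largest loss lay at chr3:106142719-106143435, downstream of the gene and 24129 bp from its start. It had counts of 40, 27 and 30 at 0 h M0, 2, 10 and 0 at 24 h M1 and 8, 6 and 6 in 72 h M1 → M0, so every M1 and M1 → M0 library was below every 0 h library. The log2 fold changes were -2.27 (edgeR adjusted p = 0.00018) and -2.26 (4.5e-05). A site 3065 bp upstream of the start (chr3:106170629-106170988) had 42, 27 and 41, then 8, 24 and 2, then 13, 12 and 10 counts. It was lower in M1 → M0 (-1.63, edgeR adjusted p = 0.00024), and its call at 24 h M1 (-0.95, 0.037) was lost with DESeq2 or without any 1 replicate. The site at the start itself (chr3:106167249-106167741) was not called in either (-0.88, 0.13 and -0.21, 0.74).

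At the Ear genes the calls were less firm. The site at the Ear11 start (chr14:51256068-51256417) had 32, 14 and 26 counts at 0 h M0 and 19, 51 and 10 at 24 h M1, and was called higher on normalised counts (log2 fold change 0.94, edgeR adjusted p = 0.019) but not with DESeq2 (0.079). A site 6213 bp upstream (chr14:51262325-51262772) had 29, 17 and 33, then 0, 18 and 0, then 11, 9 and 2 counts, and was lower in both (-1.46, 0.022 and -1.83, 0.0032), with neither call kept by DESeq2 (0.19 and 0.24). The Ear2 site 886 bp downstream of its start (chr14:44103540-44104708), with 111 to 197 counts at 0 h M0, was lower at 24 h M1 (-0.42, edgeR adjusted p = 0.029) and not called in M1 → M0 (0.24, 0.18). The main site near Retnla, 8540 bp upstream (chr16:48833470-48834011), had 73, 56 and 73, then 30, 67 and 19, then 81, 61 and 59 counts. After scaling by library size these were 9.64, 9.42 and 9.27 CPM on average, with log2 fold changes of 0.00 (edgeR adjusted p = 1) and -0.00 (0.99).

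**Figure D5:**
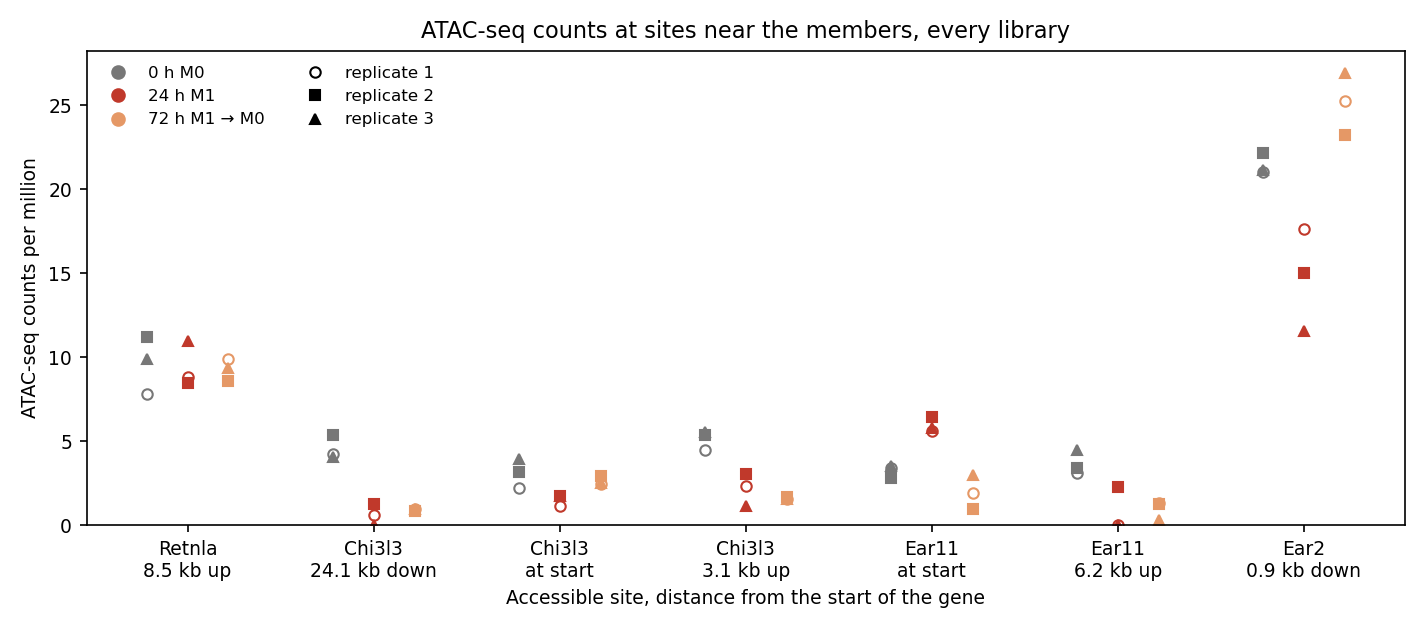
ATAC-seq counts scaled to the library total (CPM) at the named sites, with a point for each of the 3 libraries per group, shaped by replicate and coloured by group (M0 cells at 0 h, M1 cells at 24 h and the 72 h M1 → M0 group). The Chi3l3 site 24129 bp from the start had mean CPM of 4.58, 0.617 and 0.924 in these groups, and the Retnla site had 9.64, 9.42 and 9.27.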

How the data were processed

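The members and gene lists were chosen with earlier results of these data known. The bulk reads were aligned by the authors to mm10 with TopHat2 2.0.14, and they deposited log10 values, log10(FPKM + 1), from Cuffnorm 2.2.2. The matrix holds genes above an expression threshold of the authors, and no read counts. These were turned back into FPKM for the text, and log2(FPKM + 1) was fitted with limma 3.58.1 in R 4.3.3 (a mean for each of 48 conditions, mean-variance trend, two-sided, Benjamini-Hochberg over 8307 genes). The study's own test, Cuffdiff, needs reads. For ATAC-seq the authors deposited counts of reads per merged peak (MACS2 2.1.0, SAMtools 1.9, bedtools 2.28.0). Sites with more than 10 counts in at least 1 library entered a quasi-likelihood test of edgeR 4.0.16 with TMM scaling, and DESeq2 1.42.0 was an alternative. For single cells the authors deposited UMI counts from Cell Ranger with barcodes already selected. UMIs were summed per library, and each M2 library was clustered with scanpy 1.11.5 (Leiden, 2000 variable genes, 30 components, 20 neighbours, resolution 1). Thinned cells kept 500 or 1000 UMIs, and shallower cells were left out. Intervals were exact (Poisson or Clopper-Pearson, 95%), and the limit of a count of 0 was 3 counts. Arrays were handled with numpy 2.4.6 and scipy 1.17.1, and annotation with data.table (version 1.17.8). The scripts were tested on simulated data.

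The text names the 4 members, up to 4 genes of each list with the largest change in 24 h M2 against 0 h M0, all measured relatives, and for each member the 5 genes with the highest Pearson correlation, without predicted genes. Where a list's called genes were few they are named too, which was decided after their values were seen. Of the marker lists, in 24 h M2 against 0 h M0, 10 of 11 measured neutrophil markers fell, 1 of 2 eosinophil markers rose and the other fell, all 6 monocyte markers, 4 of 9 macrophage markers and the 1 measured B cell marker fell, neither of 2 fibroblast markers was called, while no marker of dendritic cells, or of basophils and mast cells, is in the bulk matrix.

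Whether a replicate number marks a pair was checked from the correlation, over genes, of the residuals of libraries with that number. Every pair was above 0.1 in 10 of the 14 comparisons of a pair of conditions (0.403 to 0.54 in 24 h M2 against 0 h M0). It was not in 96 h M0 against 0 h M0, 96 h M2 against 96 h M0, 96 h M2 → M0 against 96 h M0 and 48 h M1 → M2 against 24 h M2, nor in ATAC-seq.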

Additional observations from a re-analysis of the deposited data

Results flagged for a closer look

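The IL-4 effect on Retnla and on Ear11 differed between naive cells and cells first kept as M1, by a test of the difference itself. The difference (48 h M1 → M2 minus 48 h M1 → M0, minus 24 h M2 less 24 h M0) was -9.63 on the log2 scale for Retnla (limma adjusted p = 2.6e-14) and -6.69 for Ear11 (limma adjusted p = 2.1e-20). It kept its direction and its call for both genes under every alternative run, from -10.30 to -9.10 for Retnla and from -6.82 to -6.46 for Ear11 when 1 replicate was left out. In all 3 libraries of 48 h M1 → M2 both genes lay below every 24 h M2 library. The former M1 cells were also longer in culture and had been washed, which cannot be told apart from their M1 history.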

How the results depend on the processing

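Depth limited the shares of single cells, and in ATAC-seq 24 h M1 replicate 3 was the shallowest library. The bulk depth is unknown. Of 600 values of member results under an alternative, 569 kept direction and side of the threshold, 11 lost their call, 12 gained one and 8 changed sign. No gene was removed by the filter on a mean of 10 FPKM, so its 60 values repeat the main ones and count among the 569 by construction. Another 60 of the 569 came from leaving out replicate 4, which only 2 conditions have. The causes were not tested.

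With the replicate block, Ear2 was called in 96 h M0 against 0 h M0 (-1.20, where the numbers do not pair), in 48 h M1 → M2 against M1 → M0 (1.28) and in the interaction (-2.33), and no other member call changed. With a pseudocount of 5 the Ear2 interaction was called (-2.19), and Ear2 in 96 h M2 → M1 against M2 → M0 (-0.87) and Ear11 in 96 h M1 → M2 against M1 → M0 (0.59) were not. With a pseudocount of 0.1, Retnla in 48 h M2 → M0 against 48 h M2 (-2.18) was not called and Retnla in 96 h M0 against 0 h M0 was -0.00. Centred libraries gave Ear2 a called interaction (-2.37) and -0.06 in 48 h M2 → M1 against M2 → M0. With only the libraries compared, Chi3l3 in 48 h M2 → M1 against M2 → M0 (0.61) and Retnla in 48 h M1 → M2 against M1 → M0 (1.79) were called, and Ear2 in 96 h M2 → M1 against M2 → M0 (-1.40) and Ear11 in 96 h M1 → M2 against M1 → M0 (1.67) were not.

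Leaving out 1 replicate gave Retnla -0.25 to 0.08 in 24 h M1 against 0 h M0, -0.14 to 0.27 in 96 h M0 against 0 h M0, -2.45 to -1.69 in 48 h M2 → M0 against 48 h M2, -1.09 to 0.11 in 96 h M2 → M1 against M2 → M0 and 1.49 to 2.27 in 48 h M1 → M2 against M1 → M0. It gave Ear2 -1.24 to -0.42 in 96 h M0 against 0 h M0, -0.06 to 0.23 in 48 h and -1.51 to -1.30 in 96 h M2 → M1 against M2 → M0, and 1.16 to 1.45 in 48 h M1 → M2 against M1 → M0. It gave Chi3l3 0.55 to 0.67 in 48 h M2 → M1 against M2 → M0, -0.72 to -0.07 in 48 h M1 → M2 against 24 h M2 and -0.19 to 0.70 in the interaction, and Ear11 1.27 to 2.28 in 96 h M1 → M2 against M1 → M0.

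Genes called in 96 h M0 against 0 h M0 numbered 1134, 1839 with the block and 751 with only the libraries compared. In 96 h M2 → M0 against 96 h M0 they numbered 31, 65 with the block, 20 and 50 with pseudocounts of 0.1 and 5, and 71 with only the libraries compared. In 48 h M1 → M2 against M1 → M0 they numbered 850, and 448 with only the libraries compared, and in the interaction 525, and 1110 with the block. Leaving out 1 replicate gave 1431 to 2876 genes in 24 h M2 against 0 h M0, 1651 to 3089 against 24 h M0, 213 to 1625 in 96 h M0 against 0 h M0, 1828 to 3523 in 96 h M2 against 96 h M0, 507 to 1534 in 48 h M2 → M0 against 48 h M2, 993 to 2418 in 96 h M2 → M0 against 96 h M2, 4 to 195 against 96 h M0, 314 to 1437 in 48 h and 609 to 2060 in 96 h M1 → M2 against M1 → M0, 943 to 2053 in 96 h M1 → M2 against 96 h M2 and 129 to 811 in the interaction. The lowest counts came without replicate 2 or 3 and the highest of the last kind without replicate 1.

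For ATAC-seq, the numbers did not pair the samples. The Retnla site at 24 h M1 was -0.00 with the block, -0.01 without a filter, -0.05 with DESeq2 and -0.23 to 0.27 without 1 replicate, and -0.26 to 0.19 in M1 → M0. Without 1 replicate the Chi3l3 sites gave -1.22 to -0.73 (3065 bp, 24 h M1) and -0.42 to 0.04 (start, M1 → M0), the Ear11 sites 0.85 to 1.02 (start, 24 h M1), -7.48 to -1.04 (6213 bp, 24 h M1) and -2.29 to -1.28 (6213 bp, M1 → M0), and the Ear2 site -0.64 to -0.30 (24 h M1). Sites called numbered 41582 at 24 h M1 and 24506 to 32737 without 1 replicate. In M1 → M0 they numbered 25029, 9982 to 17214 without 1 replicate and 13020 with DESeq2.

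Thinned to 1000 UMIs, the shares at 6 h and 24 h M2 were 26.1% and 97.7% (Retnla), 3.36% and 28.2% (Chi3l3), 0.738% and 20.1% (Ear11) and 3.5% at 24 h (Ear2). Thinned to 500 they were 18.8% and 91.3%, 1.96% and 20.1%, 0.332% and 9.95%, and 0% and 1.95%. Retnla in 24 h M2 cells with at least 1000 UMIs was 13409 CPM.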
